A study of Mus musculus with 8 samples.

Results

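Transcripts of 10 Krüppel-like factors (KLFs) were followed in mouse cells given C28 for 3 h. C28 is a code name, written 028 in the titles, and the labels say nothing more of the compound. The members were the rows of the expression table named Klf2, Klf3, Klf4, Klf5, Klf6, Klf7, Klf9, Klf10, Klf11 and Klf13, which are 10 of its 54232 gene rows. RNA was sequenced in 3 libraries of cells given the solvent DMSO and 3 libraries of cells given C28. All cells were of C57BL/6 background, carried no stated genetic change and were labelled as cultured female germline stem cells, which are mitotic germ cells of the ovary. The labels do not say whether replicates came from separate cultures, so p-values measure the spread between libraries alone, and that may be technical.

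KLFs are transcription factors that bind GC-rich and CACCC-type DNA through zinc fingers near their C-terminal end. They fall into an activating group (KLF2, KLF4, KLF5, KLF6 and KLF7 here), a group that represses through the CtBP co-repressors (KLF3), and a group that can repress through SIN3A and histone deacetylases (KLF9, KLF10, KLF11 and KLF13). Several members, among them KLF2, KLF4, KLF6 and KLF10, are known as early response genes whose RNA changes quickly after serum, stress or cytokines. In blood cells KLF2 and KLF4 are linked to quiescence and KLF13 to lymphocyte and erythroid gene control.

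The libraries held 16930212 to 19197376 reads assigned to genes, and replicate 1 stood apart from replicates 2 and 3 in both groups. The chi-square per gene between libraries of a group was 23.6 to 29.0 where replicate 1 was one of them and 5.23 and 5.88 between replicates 2 and 3, so no pair agreed within counting noise. The germ cell label was only partly borne out by markers. Of 9 germline markers 4 averaged at least 10 normalized counts, Ddx4 had 4 reads in all, and Pou5f1 and Dppa3 had 0 reads in all 6 libraries, which allows up to 3 of 108208382 reads (counting error only). Of 11 blood and mast cell markers 7 averaged at least 10, among them Kit, Gata2 and Cpa3. In this list 4 markers had fewer than 10 reads in all, 2 of them with 0, the same numbers as in the germline list. Summed over each list, the germline markers reached 735 to 956 normalized counts in a library and the blood and mast cell markers 57286 to 65554. These sums are not corrected for transcript length. The summed level of 8 fibroblast markers was 1070 and 1121 normalized counts in replicate 1 of the DMSO and C28 groups and 1726 to 2811 in the other 4 libraries. No marker in these lists or in the ovarian somatic and endothelial lists passed the test between C28 and DMSO, except that Pdgfrb fell with the replicate block described below (0.674-fold, limma adjusted p 0.0352).

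Promoter sequences are shown for Klf6, the member that rose, and for 3 members whose promoters hold the same or other elements but whose RNA did not pass the test. RefSeq promoter sequences (GRCm38.p6) matched 8 of the 10 members. Each line gives the 250 bases before the start site, 5′ to 3′ on the gene's strand. Klf6 lies at chr13:5861239-5861488, Klf3 at chr5:64803271-64803520, Klf2 at chr8:72318812-72319061 and Klf9 at chr19:23140976-23141225, all on the plus strand. Capitals mark every match to the GC box, the antioxidant response element, the cAMP response core, the AP-1 site or the MEF2 site.
Klf6: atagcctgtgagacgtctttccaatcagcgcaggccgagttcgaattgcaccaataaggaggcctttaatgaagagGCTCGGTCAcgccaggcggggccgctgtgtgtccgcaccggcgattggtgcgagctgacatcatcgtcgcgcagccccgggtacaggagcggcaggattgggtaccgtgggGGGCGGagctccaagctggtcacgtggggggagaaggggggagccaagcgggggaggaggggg
Klf3: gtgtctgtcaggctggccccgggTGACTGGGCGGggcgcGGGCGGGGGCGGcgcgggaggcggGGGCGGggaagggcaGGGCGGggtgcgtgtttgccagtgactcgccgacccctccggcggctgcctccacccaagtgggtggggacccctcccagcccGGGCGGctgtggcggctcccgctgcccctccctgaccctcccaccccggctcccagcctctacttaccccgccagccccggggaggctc
Klf2: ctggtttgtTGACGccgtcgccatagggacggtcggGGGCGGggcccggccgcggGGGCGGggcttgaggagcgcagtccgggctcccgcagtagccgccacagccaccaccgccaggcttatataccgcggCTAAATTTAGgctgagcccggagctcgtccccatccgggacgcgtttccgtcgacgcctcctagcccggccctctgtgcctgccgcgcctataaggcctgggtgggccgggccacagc
Klf9: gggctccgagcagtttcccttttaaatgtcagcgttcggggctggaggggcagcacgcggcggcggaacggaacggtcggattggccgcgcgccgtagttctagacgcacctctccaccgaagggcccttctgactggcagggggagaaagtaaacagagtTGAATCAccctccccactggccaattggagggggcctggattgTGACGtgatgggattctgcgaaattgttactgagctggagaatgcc

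The antioxidant response element, searched as TGACNNNGC on both strands, occurred in Klf6 and Klf3, that is in 2 of 8 members with a sequence and in 10.2% of all 32851 promoter entries. In Klf6 it lies on the opposite strand, so that the printed strand reads GCTCGGTCA, from 174 to 166 bases before the start site. In Klf3 it lies on the printed strand as TGACTGGGC, from 227 to 219 bases before the start, and its last bases overlap a GC box. Klf3 RNA did not pass the test, as given below. The cAMP response core TGACG was found in Klf2, Klf4, Klf9 and Klf13 (17.8% of all entries), and overlaps the full element TGACGTCA, which matched no member (1.55%). The AP-1 site TGANTCA was found in Klf9 alone among the 8 members (6.75% of all entries), and the MEF2 site in Klf2 alone (2.92%). The heat shock element, searched as GAANNTTC and as TTCNNGAA, matched none of the 8 members (6.69% and 7.17% of all entries), and neither did the serum response element (1.47%). GC boxes, GGGCGG on either strand, were present in 7 of 8 members against 32.7% of all entries, and the CACCC box, CACCC on either strand and not marked above, in 5 of 8 against 52.0%. The bases of these 8 promoters were 59.2% (Klf7) to 78.4% (Klf3) G or C, and the shares were not set against promoters of like composition. A match is a description of these letters only.

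Klf6 was the member that rose with C28. It encodes a ubiquitous zinc finger activator linked to stress and growth arrest. Its DMSO libraries were at 1146, 1343 and 1333 normalized counts and its C28 libraries at 3125, 2449.8 and 2533. Every C28 library lay above every DMSO library, and the lowest C28 value was well clear of the highest DMSO value. The ratio of C28 to DMSO was 2.73 in replicate 1, 1.82 in replicate 2 and 1.90 in replicate 3. Replicate 1 had the lowest DMSO and the highest C28 value, so it gave the largest ratio. In RNA from a whole culture, more cells that make a transcript and more transcript per cell cannot be told apart.

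By limma across 19054 genes, on log2(value + 1), the log2 fold change of Klf6 was 1.08 ± 0.11 (SE), a 2.11-fold rise with a 95% interval from 1.76 to 2.54-fold and a Benjamini-Hochberg adjusted p of 0.0218. Among the 10 members 1 rose, 0 fell and 9 did not pass, where 0.121% of all tested genes rose, 0.0157% fell and 0.136% passed in either direction. Klf6 was the 15th gene by p of those tested. In the authors' deposited table its log2 fold change was 0.88 and its adjusted p 4.42e-13, and DESeq2 on the recovered reads gave 1.09 and 6.08e-13. For every member the deposited log2 fold change was smaller in size than that of DESeq2, with 0.16 against 0.89 for Klf5. The deposited and recomputed fold changes may thus be different measures. Klf6 was also the only member called by edgeR's quasi-likelihood test (adjusted p 0.0217) and by DESeq2. These called 0.147% of the 19054 genes and 1.39% of the 13138 genes to which DESeq2 gave an adjusted p. Same-numbered libraries deviated together, so the fit was repeated with the replicate number as a block. The SE of Klf6 was then 0.09 and its adjusted p by limma 0.000149, and it was again the only member to pass, where 2.55% of all genes rose, 2.25% fell and 4.8% passed in either direction. Without the block, the call was lost when DMSO replicate 1 (limma adjusted p 0.0774), DMSO replicate 2 (0.135), DMSO replicate 3 (0.142), C28 replicate 2 (0.138) or C28 replicate 3 (0.128) was left out, with log2 fold changes from 1.01 to 1.15. It was kept without C28 replicate 1 (0.0210, log2 fold change 0.97). With a replicate number left out of both groups and no block, it was kept without replicate 1 (0.00311, log2 fold change 0.90) and lost without replicate 2 (0.998, 1.19) or replicate 3 (0.999, 1.16). With the block and the same libraries left out, the call was kept each time, at adjusted p-values by limma of 9.45e-05, 0.0223 and 0.00450.

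**Figure D1:**
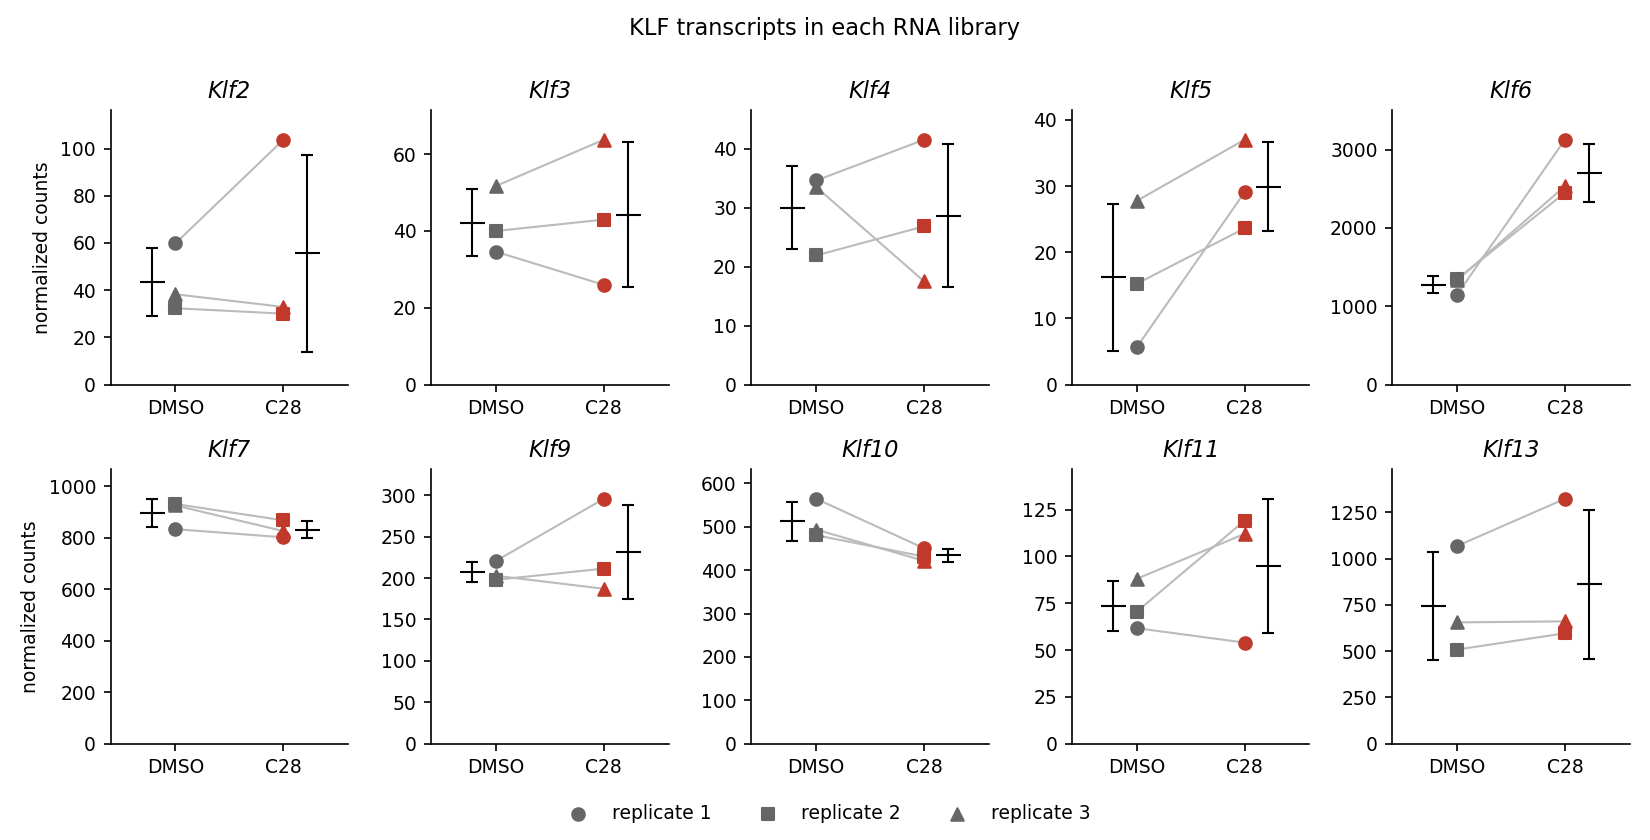
Normalized counts (vertical axes, from 0) of the 10 KLF genes in each RNA library, DMSO in grey and C28 in red, with lines joining same-numbered replicates and black bars for the mean ± SD of 3 libraries. In the Klf6 panel the C28 libraries lie between 2449.8 and 3125 and all DMSO libraries at or below 1343, while in most other panels the groups overlap.

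The other activators did not pass the test. Klf2, which holds lymphocytes and endothelial cells in a resting state, was at 59.8, 32.4 and 38.3 normalized counts with DMSO and 103.8, 30.05 and 32.9 with C28. Replicate 1 was the highest library in both groups, and C28 replicate 1 was the only library above 60 counts. Its C28 to DMSO ratio was 1.73 in replicate 1 and 0.929 and 0.860 in the other two, so the pairs went both ways. The fold change by limma was 1.11 with a 95% interval from 0.504 to 2.47 (adjusted p 0.989).

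Klf4, a factor of epithelial differentiation, monocytes and pluripotency, was at 34.6, 21.9 and 33.5 normalized counts with DMSO and 41.5, 26.8 and 17.5 with C28. The groups overlapped, and C28 replicate 3 was at 0.522 of its DMSO counterpart while the other pairs had ratios of 1.20 and 1.23. Its recovered reads numbered 17 to 40 in a library, and the 95% interval of the fold by limma ran from 0.505 to 1.68.

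Klf5, an activator of proliferation in epithelium and of stem cell renewal, had the fewest reads of the members, 6 to 36 in a library. It was at 5.61, 15.2 and 27.7 normalized counts with DMSO and 29.1, 23.6 and 37.0 with C28. All 3 pairs were higher with C28, with ratios of 5.18, 1.55 and 1.33, but DMSO replicate 3 lay above C28 replicate 2. The estimated fold of 2.09 was close to that of Klf6, while its 95% interval by limma, 0.884 to 4.94, was far wider. That interval holds both no change and a rise of the size seen for Klf6. With the replicate block it was 1.17 to 3.74, which leaves out no change before adjustment over all genes. The adjusted p by limma was 0.728 without and 0.161 with the block, so Klf5 did not pass in either fit. Its DMSO libraries differed 4.95-fold from lowest to highest. The log2 fold change by limma was 1.06, and leaving out 1 library moved it between 0.49 (without DMSO replicate 1) and 1.55 (without DMSO replicate 3). It was 0.89 by edgeR, 0.89 by DESeq2 and 0.16 in the authors' deposited table.

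Klf7, an activator needed in developing neurons, was at 834, 932 and 926 normalized counts in the DMSO and 802, 868 and 826 in the C28 libraries. Its values moved within a narrow band, and each pair was slightly lower with C28, by ratios of 0.962, 0.932 and 0.892. The 95% interval of the fold by limma was 0.814 to 1.06, which leaves out a rise of the size of Klf6 (adjusted p 0.860, and 0.387 with the block). Klf7 overlaps Gm13748, Gm35880 and Mir6899 in the same annotation.

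Klf3, the CtBP-dependent repressor, showed no direction. It was at 34.6, 39.97 and 51.7 normalized counts with DMSO and 25.9, 42.9 and 63.7 with C28. The C28 libraries lay on both sides of the DMSO range, with pair ratios of 0.750, 1.07 and 1.23. The fold by limma was 0.999 with a 95% interval from 0.565 to 1.77. Klf3 overlaps 2 other genes in the GRCm38.p6 annotation, Gm38457 and Gm31684, and the use of strand in the authors' counting is not given in the sources used here; its reads may include theirs.

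Among the SIN3A-binding members, Klf10 had the lowest p in both limma fits. Klf10, also called TIEG1, is an early target of TGF-beta signalling. Its DMSO libraries were at 565, 481 and 494 normalized counts and its C28 libraries at 450.4, 431 and 421. Every C28 library lay below every DMSO library, and Klf10 and Klf6 were the 2 of 10 members whose groups did not overlap, where this held for 14.7% of all tested genes, 8.16% with C28 above DMSO and 6.49% below. The pair ratios were 0.798, 0.898 and 0.854. Its log2 fold change was -0.24 ± 0.10 (SE), a fold of 0.849 with a 95% interval from 0.725 to 0.994. This did not pass adjustment over all genes (limma unadjusted p 0.0436, adjusted p 0.632), nor did it with the replicate block (limma unadjusted p 0.00924, adjusted p 0.111), and DESeq2 did not call it (adjusted p 0.763). At an unadjusted limma p under 0.05 stood 2 of 10 members, Klf6 and Klf10, against 7.83% of all tested genes. Klf10 shares an annotated stretch with Gm35248.

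Klf11, or TIEG2, a related TGF-beta-induced factor, was at 61.7, 70.4 and 88.0 normalized counts with DMSO and 54.0, 119 and 112 with C28. Replicates 2 and 3 were higher with C28 than any DMSO library, and replicate 1 was the lowest library of each group and lower with C28. The pair ratios were 0.875, 1.69 and 1.27, and the 95% interval of the fold by limma ran from 0.731 to 2.08 (adjusted p 0.915, and 0.468 with the block).

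Klf9, a target of glucocorticoid and thyroid hormone receptors, was at 221, 198 and 203 normalized counts in the DMSO and 296, 211 and 187 in the C28 libraries. C28 replicate 1 was the highest library and C28 replicate 3 the lowest, so the C28 values bracketed the DMSO values. Its fold by limma was 1.10 with a 95% interval from 0.820 to 1.47.

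Klf13, which binds the CCL5 and gamma-globin promoters, was at 1068, 508 and 655 normalized counts in the DMSO and 1323, 597 and 661 in the C28 libraries. Replicate 1 was far above the others in both groups, and the spread among replicates exceeded the difference between groups. Each pair was higher with C28, by ratios of 1.24, 1.17 and 1.01. The 95% interval of the fold was 0.641 to 2.01 by limma and narrowed to 1.02 to 1.27 with the replicate block, with an adjusted p of 0.202. Klf13 overlaps Gm27252 and E030018B13Rik.

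Over the members, 3 were higher with C28 in all 3 same-numbered pairs (Klf5, Klf6 and Klf13), 2 were lower in all 3 (Klf7 and Klf10) and 5 had pairs that went both ways, where 20.6% of all tested genes were higher in all 3, 18.8% lower and 39.4% either. The median log2 fold change of the 10 members was 0.14 beside 0.00 for all tested genes, and 6 of 10 lay above 0 beside 9711 of 19054. In the plot of fold changes Klf6 stands to the right of 0 with a narrow interval.

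**Figure D2:**
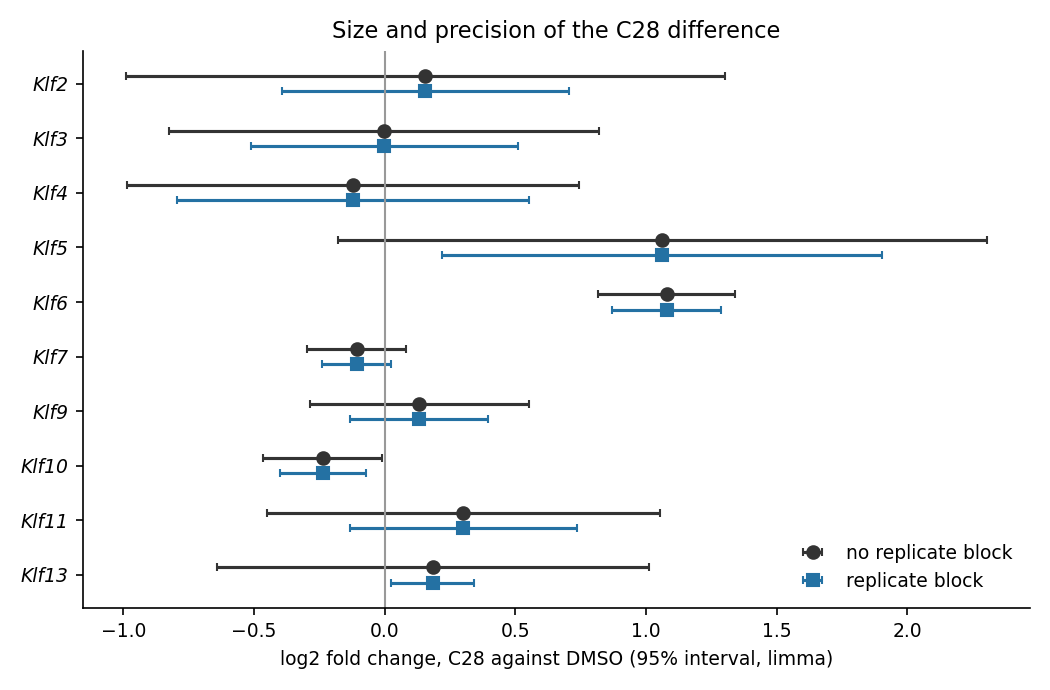
Log2 fold change of C28 against DMSO (horizontal axis) with its 95% interval by limma for each KLF gene, black circles without and blue squares with the replicate number as a block. The Klf6 interval runs from 0.82 to 1.34 without the block, whereas Klf5 has nearly the same estimate and an interval from -0.18 to 2.30.

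Replicate 1 stood apart for most members, at a rate near that of all genes by the ratio given next. The ratio of replicate 1 to replicates 2 and 3, over both groups, lay farther from 1 on the log scale than the ratio of the C28 to the DMSO mean for 7 of 10 members, Klf5, Klf6 and Klf10 being the others. The same held for 62.4% of all tested genes and 65.1% of those averaging at least 10 normalized counts. Klf2, Klf4, Klf9, Klf10 and Klf13, 5 of 10 members, were highest in replicate 1 in both groups. Klf3, Klf7 and Klf11, 3 of 10, were lowest in replicate 1 in both groups. Of all tested genes 23.2% were highest and 24% lowest there, so the share highest there was larger among the members. Klf2 averaged 81.8 normalized counts in replicate 1 and 33.4 in the others, a ratio of 2.45, and Klf13 1195 and 605, a ratio of 1.97. In the other direction Klf11 averaged 57.8 and 97.4, a ratio of 0.594, and Klf3 30.3 and 49.6, a ratio of 0.611. Within the groups, the ratio was farther from 1 with C28 than with DMSO for Klf2 (3.30 and 1.69), Klf3 (0.486 and 0.755), Klf4 (1.87 and 1.25), Klf9 (1.48 and 1.10), Klf11 (0.467 and 0.779) and Klf13 (2.10 and 1.83). It was nearer to 1 with C28 than with DMSO for Klf5 (0.959 and 0.261), Klf7 (0.947 and 0.898) and Klf10 (1.06 and 1.16). With 1 library of each kind these differences were not tested. The fibroblast marker sum given above also differed by replicate number, and its part in these values was not tested.

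**Figure D3:**
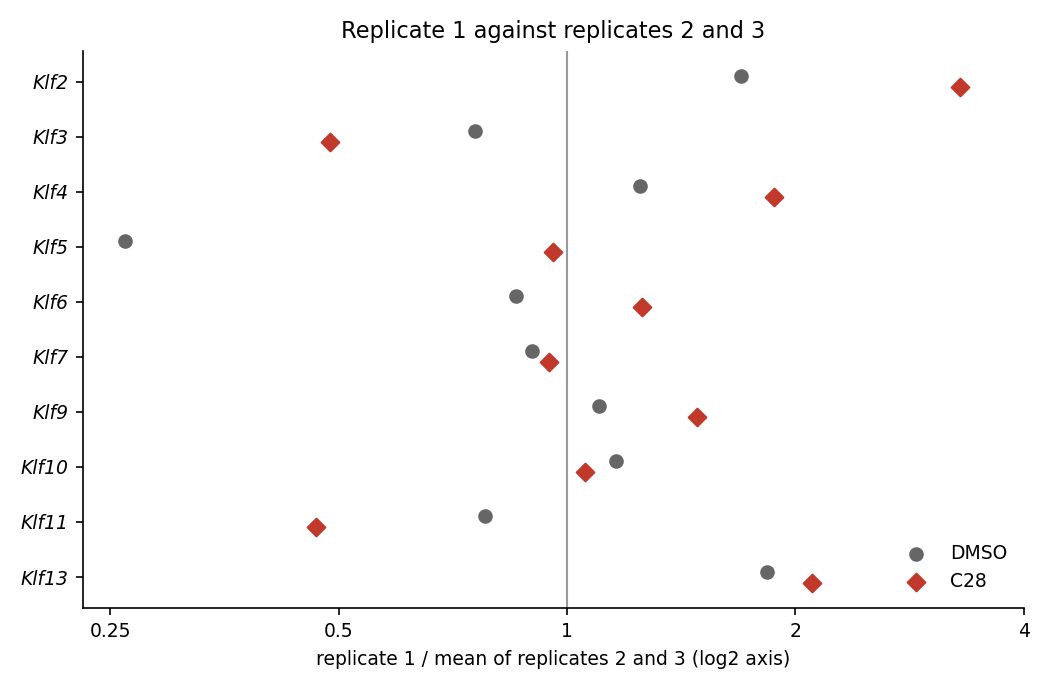
Ratio of the replicate 1 value to the mean of replicates 2 and 3 (horizontal log2 axis), in DMSO (grey circles) and C28 (red diamonds), 1 ratio per KLF gene and group with no error. Klf2 and Klf13 lie to the right of 1 and Klf3 and Klf11 to the left in both groups, and Klf6 changes side, from 0.857 with DMSO to 1.25 with C28.

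The genes most like Klf6 over the 6 libraries were Txnrd1, Tmem63b and Hmox1, by Pearson correlation of log2(value + 1) among 10571 other genes averaging at least 50 normalized counts. The correlations were 0.998 for Txnrd1, 0.998 for Tmem63b and 0.997 for Hmox1; they rest on 6 libraries that share the contrast of 3 against 3 and are a description. Txnrd1, a cytosolic thioredoxin reductase, was at 7878, 8685 and 8804 normalized counts with DMSO and 18766, 15769.9 and 15632 with C28 (1.97-fold, limma adjusted p 0.0109). As with Klf6, its lowest DMSO and highest C28 library were both replicate 1. Tmem63b, a membrane channel protein, was at 839.5, 880.2 and 873 normalized counts with DMSO and 1172, 1056 and 1069.999 with C28. Its 1.27-fold difference did not pass without the block (limma adjusted p 0.253) and rose with it (0.0113). Hmox1, which breaks down haem, was at 1013, 1358 and 1239 with DMSO and 9459, 6455 and 6475 with C28, with the same library at each end.

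**Figure D4:**
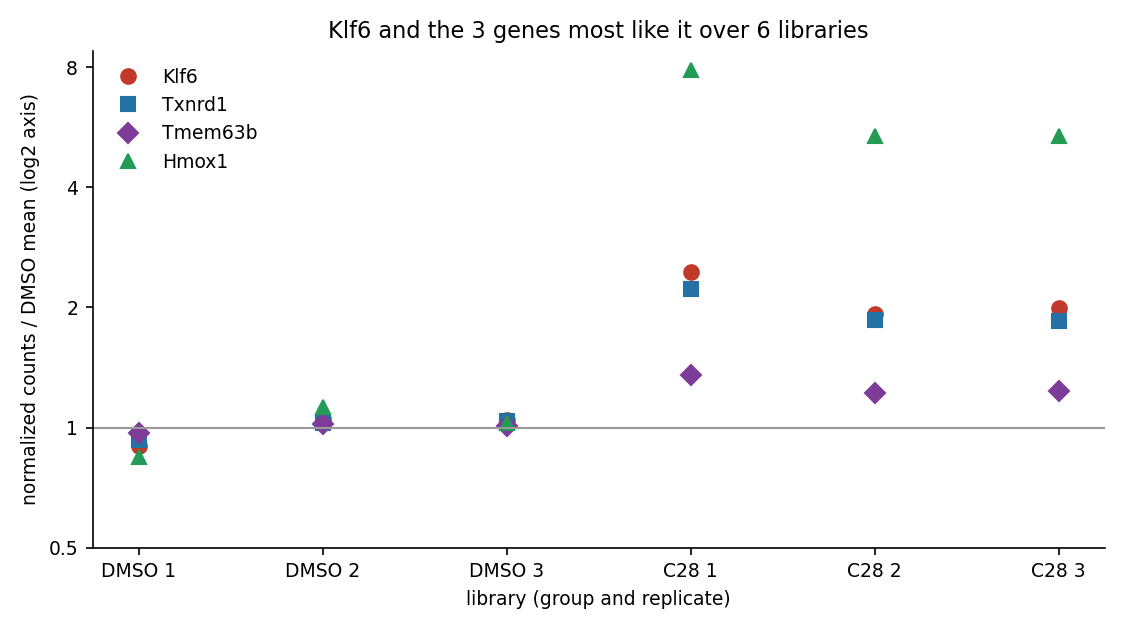
Normalized counts divided by the DMSO mean of the gene (vertical log2 axis) in each of the 6 libraries (horizontal axis) for Klf6 and the 3 genes with the highest correlation to it. All 4 genes are lowest in DMSO replicate 1 and highest in C28 replicate 1, and they differ in fold, from 1.27 for Tmem63b to 6.14 for Hmox1.

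Of 7 other KLF genes 4 were tested and 0 passed in limma, where 0 stood at an unadjusted limma p under 0.05, edgeR and DESeq2 called 0 and the block called 0. Klf16, a SIN3A-binding member, was at 1235 ± 74.3 normalized counts in the DMSO and 1116 ± 102 in the C28 libraries (SD, n = 3 each), and Klf8, a CtBP-binding member, at 273 ± 16.6 and 298 ± 32.2. Klf1, the erythroid factor, and Klf12 were low, at 5.37 ± 3.61 and 7.98 ± 3.03 and at 7.26 ± 1.39 and 12.9 ± 5.74. DESeq2 gave no adjusted p for Klf1 or Klf12. Klf14 and Klf15 had 0 reads and Klf17 had 1. The SP factors carry zinc fingers closely related to those of the KLFs and compete for GC boxes. Of 9 SP genes 5 were tested and 0 passed, with 1 at an unadjusted limma p under 0.05, 0 by edgeR, 0 by DESeq2 and 0 with the block. Sp3 was at 2161, 2184 and 2395 normalized counts in the DMSO and 2660, 2582 and 2535 in the C28 libraries, groups that did not overlap (1.15-fold, limma adjusted p 0.502, and 0.0582 with the block). Sp1 was at 1632 ± 122 and 1660 ± 27.7. Sp5, Sp6 and Sp8 had 0 reads, and DESeq2 gave no adjusted p for Sp9.

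No gene of KLF partner proteins passed the test without the block. With the block only Kat2a passed, as a fall, where 2.25% of all tested genes fell. Of 9 co-repressor genes 0 passed with or without the block, with 0 at an unadjusted limma p under 0.05, 0 by edgeR and 0 by DESeq2, and a median log2 fold change of -0.02. Ctbp1, the partner of KLF3, was at 6666 ± 193 normalized counts in the DMSO and 6735 ± 266 in the C28 libraries, and the deacetylase Hdac1 at 2364 ± 77.3 and 2330 ± 165. Of 5 co-activator genes 0 passed without the block (0 with an unadjusted limma p under 0.05, 0 by edgeR, 0 by DESeq2), and Kat2a, the acetyltransferase GCN5, fell with it (0.821-fold, limma adjusted p 0.0128). Kat2a was at 2180.1, 2712 and 2829 normalized counts in the DMSO and 1643, 2371 and 2373 in the C28 libraries, so replicate 1 was lowest in both groups and the groups overlapped. None of the 9 ubiquitin ligase genes passed in either limma fit, with 0 at an unadjusted limma p under 0.05, 0 by edgeR and 0 by DESeq2. The most abundant, Itch, which ubiquitinates several transcription factors, was at 2033 ± 432 and 2197 ± 540 normalized counts. Fbxo32 had 11 reads in all and no adjusted p from DESeq2.

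Upstream regulators were taken by pathway. The MEK5, ERK5 and MEF2 cascade drives KLF2 and KLF4 in endothelium. Of its 11 listed genes 0 passed in the unblocked fit, where 0 stood at an unadjusted limma p under 0.05 and edgeR and DESeq2 called 0, and Mef2a, a MADS-box factor, rose with the block (1.24-fold, limma adjusted p 0.0231). Mef2a was at 845, 602 and 649 normalized counts in the DMSO and 1099, 772 and 739 in the C28 libraries. Mef2c had 8 reads in all and no adjusted p from DESeq2. Klf2, whose promoter above holds the MEF2 site, did not pass, and a link between Mef2a and Klf2 was not tested. Of 6 genes of the serum response factor group 0 passed in either limma fit, with 0 at an unadjusted limma p under 0.05, 0 by edgeR and 0 by DESeq2, and Srf was at 1734 ± 73.2 and 1631 ± 132.

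In the TGF-beta and SMAD list, the pathway that induces KLF10 and KLF11, 0 of 12 genes passed without the block, 0 by edgeR and 0 by DESeq2. At an unadjusted limma p under 0.05 stood 5 of the 12, a larger share than the 7.83% of all tested genes. Of the 5, Tgfb1, Smad3, Smad6 and Ski had lower means and the receptor gene Tgfbr1 a higher one with C28 (1.17-fold, limma adjusted p 0.632). The median log2 fold change was -0.16 beside 0.00 for all genes. Tgfb1, the ligand, fell with the block (0.883-fold, limma adjusted p 0.0418, and 0.506 without). It was at 7569, 7705 and 7620.2 normalized counts in the DMSO and 6374, 6829 and 7026 in the C28 libraries, groups that did not overlap. In the glucocorticoid list, the hormone pathway that induces KLF9, 0 of 7 passed in the unblocked fit, where 0 stood at an unadjusted limma p under 0.05, and edgeR and DESeq2 called 0. With the block Sgk1, a kinase, rose (1.48-fold, limma adjusted p 0.0133) and Per1, a clock repressor, fell (0.761-fold, limma adjusted p 0.0153). No other gene of the 7 passed with the block, and a part of this hormone pathway in the values was not tested. Nr3c1, the receptor itself, was at 2309.7 ± 490.5 and 2558 ± 593 normalized counts.

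The last list held genes described as KLF targets. Of 17 listed genes 16 were tested and 0 passed in limma without the block, with 2 at an unadjusted limma p under 0.05, 0 by edgeR and 1 by DESeq2. With the block 1 rose and 2 fell. Over all tested genes 7.83% stood at that unadjusted p, and with the block 2.55% rose and 2.25% fell. Cdkn1a, the cell cycle inhibitor p21 and a target described for KLF4 and KLF6, was at 2332, 2867 and 2514 normalized counts with DMSO and 3263, 3720.3 and 3268 with C28. Its groups did not overlap, and it rose 1.33-fold with the block (limma adjusted p 0.000771, and 0.281 without; DESeq2 adjusted p 0.0396). Ccnd1, cyclin D1, was at 2098, 3059 and 3195 with DMSO and 1011, 1763 and 2129 with C28. C28 replicate 3 lay above DMSO replicate 1, and Ccnd1 fell 0.570-fold with the block (limma adjusted p 0.000237, and 0.522 without). S1pr1, the lymphocyte egress receptor controlled by KLF2, was at 14.02, 88.5 and 102 normalized counts with DMSO and 3.11, 35.4 and 58.6 with C28. It was lower in each pair and fell with the block (0.400-fold, limma adjusted p 0.01999, and 0.877 without), and replicate 1 was lowest in both groups.

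**Figure D5:**
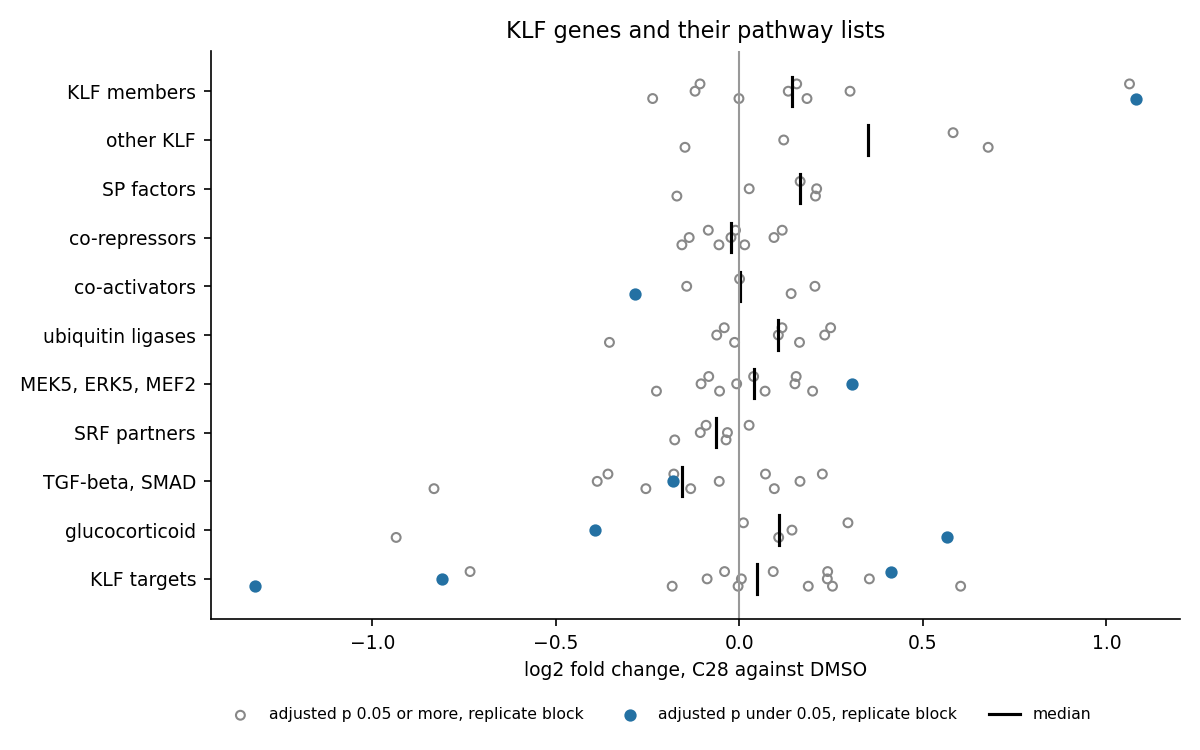
Log2 fold change of C28 against DMSO by limma (horizontal axis) for each tested gene of the KLF and pathway lists (rows), filled blue where the adjusted p was under 0.05 with the replicate block, with a black bar at each list's median. Of the KLF members 1, Klf6, is filled, the target list holds 3 filled genes and the other 9 lists hold 0 to 2.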

How the data were processed

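RNA was measured in 3 DMSO and 3 C28 libraries, grouped and numbered from the sample titles. The submitters' processing notes name Bowtie2, Cufflinks 2.2.1 and the build mm9 with no roles, and give no counting tool. The deposited values are a normalized signal: the authors scaled each library's gene counts by a single factor. This shows in the values, 100% of which are, to within 0.01, a whole number of steps, each step being 1 read; dividing by the step gave the recovered reads. The authors' deposited table also holds their log2 fold change and adjusted p-value. Counts are not divided by transcript length, so levels are compared within a gene only, apart from the sums over marker lists.

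One row was kept per gene name. Genes reaching a value of 1 in 3 or more libraries entered limma 3.58.1 in R 4.3.3 (intensity trend, pseudocount 1, Benjamini-Hochberg threshold 0.05). The fit was checked on simulated counts that held no replicate effect, so that check does not cover the replicate differences of these libraries. A single read was worth 0.935 to 0.957 in the DMSO libraries and 1.03 to 1.07 in the C28 libraries. A gene with only 1 read in each C28 library was thus tested, and its mirror image was not. This raises the shares of all tested genes that were higher with C28, by an amount not measured. Fold changes refer to log2(value + 1), a scale that understates changes of low genes. On the recovered reads, edgeR 4.0.16 called 28 genes and DESeq2 1.42.0 called 182. Deviations from the group means of same-numbered libraries correlated at 0.84, 0.68 and 0.70, so the replicate number was also fitted as a block; this pairing comes from the data and not from a label. Libraries numbered 2 and 3 also correlated across groups (0.54 and 0.41), and those pairing replicate 1 with another number at -0.65 to -0.75, so replicate 1 set part of these values. Other alternatives were the pseudocount, the filter, TMM scaling and left-out libraries. All members were named, genes of other lists that passed with or without the block (otherwise the most abundant), and the 3 genes most correlated with a member that passed. The members and lists were chosen with earlier results of these data known. The MEF2 site was added to the motifs after the sequences were seen. The H3K27ac peak lists (1 control and 1 C28 library) were not analysed here, since no gene positions on their build were used.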

Additional observations from a re-analysis of the deposited data

How the results depend on the processing

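Klf6 was higher with C28 in 20 of 20 alternatives, with log2 fold changes from 0.90 to 1.19, and was called in 13 of them. Klf5, Klf7, Klf10 and Klf11 also kept their direction in 20 of 20, and none of the 9 members other than Klf6 was called in any. Klf2, Klf3, Klf4, Klf9 and Klf13 changed direction in 4, 8, 3, 3 and 2 alternatives. The count of KLF members called was 1 without and with the replicate block, and leaving out single libraries or replicate numbers gave 0 to 1. Over all genes the count of 26 became 914 with the replicate block and 182 by DESeq2. It was 0 to 23 when 1 library was left out, 50 (pair 2), 207 (pair 3) and 853 (pair 1) with the block and 1 pair left out, and 0 to 91 with 1 replicate number left out of both groups without the block, an alternative chosen after seeing the data; without C28 replicate 2, 1204 genes stood at an unadjusted p under 0.05 in limma at a count of 0. TMM scaling, pseudocounts of 0.5 and 5 and both filters gave 26 to 30 genes. Klf2, Klf3, Klf4 and Klf5 had 137 to 298 reads over the 6 libraries and SEs of 0.35 to 0.53 on the log2 scale. This limits what could be detected for them. Klf11 had 504 reads and an SE of 0.32. Klf13, with 4835 reads, had an SE of 0.35, which was 0.07 with the replicate block. Depth and spread between replicates were not separated. Alternatives planned for H3K27ac peaks were not run.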
